A study of Homo sapiens with 6 samples.

Results

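VCPIP1, the gene targeted in this experiment, was examined together with the 9 genes whose products act beside it when p97 rebuilds Golgi membranes: VCP (the ATPase p97 itself), the adaptors NSFL1C (p47), UBXN2A and UBXN2B (p37), the VCPIP1 activator WAC, the SNARE-recycling ATPase NSF with its adaptor NAPA, and the Golgi SNAREs STX5 and GOSR2. The genes were chosen by symbol, and all 10 were among the 15832 symbols measured and among the 10966 that entered the test because their mean reached 1 TPM. The 6 libraries came from AsPC-1, an established line of human pancreatic adenocarcinoma cells, 48 h after transfection. Cells had received an siRNA against VCPIP1 (siVCPIP1, 3 libraries) or a control siRNA (siControl, 3 libraries), with no other difference given in the labels. The labels give no siRNA sequence. Whether replicate libraries stem from separate cultures is not stated either, so p-values reflect only library-to-library spread, which may be technical.

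When a cell divides, its Golgi stacks break into vesicles and must fuse back into cisternae. AAA ATPases drive this fusion: NSF, brought to membranes by NAPA (alpha-SNAP), pulls used SNARE bundles apart, and p97 acts with p47 in a second route that converges on the SNARE STX5. VCPIP1 is a deubiquitinating enzyme of the OTU family that binds p97 and is needed for p97-driven Golgi and ER assembly. WAC binds VCPIP1 and stimulates its deubiquitinating activity in the p47 route, and STX5 is ubiquitinated by the ligase HACE1 and cleared of that mark by VCPIP1. The related adaptor p37 serves a further p97 route. These are roles of the proteins, and the data below are levels of their mRNAs.

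Levels are in TPM, a length-scaled share of all transcripts in a library, so genes can be ranked by level within a library, and a loss of RNA per cell cannot be told apart from an unchanged amount. The number of reads behind each value is unknown. The libraries differed as a whole: the median TPM over all genes was 1.24 to 2.26 in siVCPIP1 libraries and 6.18 to 7.44 in siControl libraries, and transcripts of under 45% GC held 3.73% to 5.89% of TPM in siVCPIP1 and 13.1% to 15.2% in siControl libraries. Within siVCPIP1, replicate 3 stood apart, with a median of 2.26 TPM against 1.26 and 1.24 TPM in replicates 1 and 2, and it correlated at r = 0.983 and 0.982 with them across genes, where they correlated at 0.997 with each other. The change of each member is therefore also given without it, as are the member counts, the list totals and the NAPA to NSF ratio. Most other results include it. The epithelial keratins KRT8, KRT18 and KRT19 stood at 6495 to 8924 TPM in siVCPIP1 and at 3909 to 5820 TPM in siControl libraries. The other epithelial markers checked were lower in siVCPIP1: EPCAM stood at 2.99 to 11.7 TPM in siVCPIP1 and at 157 to 196 TPM in siControl libraries, and CDH1 at 0.28 to 1.33 TPM in siVCPIP1 and at 27.5 to 31.7 TPM in siControl libraries. MUC1 stood at 14.7 to 23.6 TPM in siVCPIP1 and at 51.9 to 61.9 TPM in siControl libraries. PTPRC, PECAM1, VWF, COL1A1 and ALB, markers of other cell types, did not exceed 1.27 TPM in any library.

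The system did not move as a block. Of the 10 genes, 7 had lower TPM in siVCPIP1 (VCPIP1, WAC, VCP, NSFL1C, UBXN2A, UBXN2B and NSF), 2 had higher TPM (NAPA and STX5), and GOSR2 was not called (limma, adjusted p under 0.05 over all genes tested). Among all genes tested 66.0% were called lower and 15.0% higher, so these counts lie near the background. The median log2 fold change of the 10 genes was -1.43, against -1.12 for all genes tested. The TPM ranges of the groups did not overlap in any of the 10 genes, a property of 86.0% of all genes tested. What set the members apart from each other was the size of the change, from 6.08% of the siControl mean kept by VCPIP1 to 176% by NAPA, where the median gene kept 39.1%. Without siVCPIP1 replicate 3 the counts were again 7 lower and 2 higher.

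**Figure D1:**
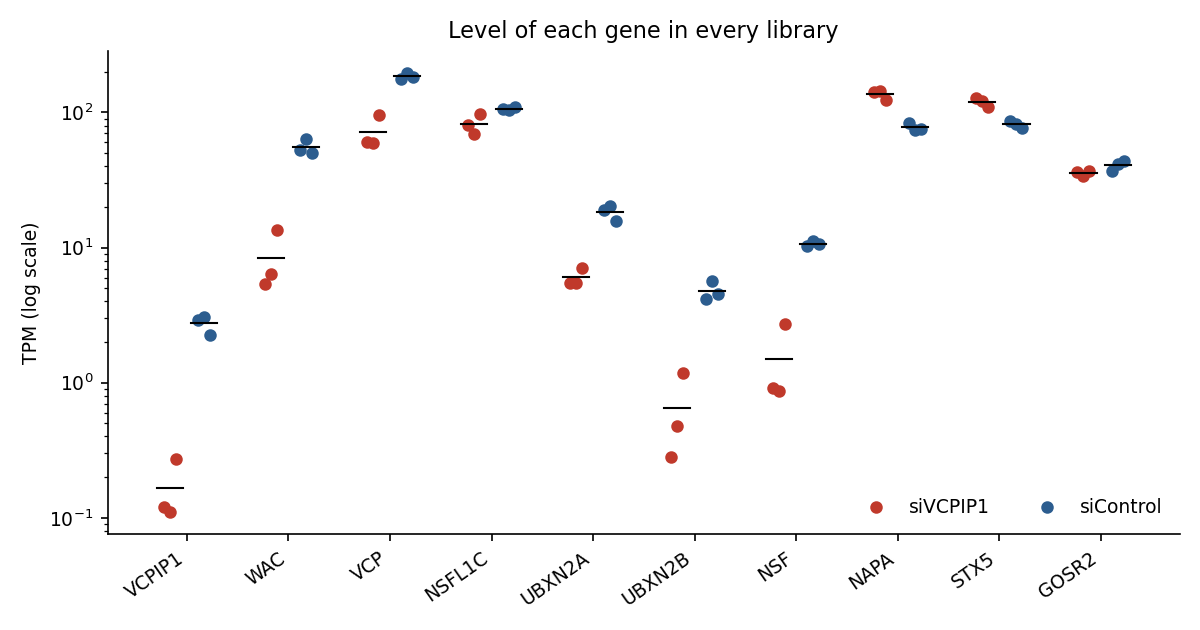
TPM (log axis) of the 10 genes in every library, with siVCPIP1 in red on the left and siControl in blue on the right of each pair; points are libraries and bars are means of 3. The red points lie above the blue ones for NAPA and STX5 and below them for the other genes, with the widest gap for VCPIP1 and the narrowest for GOSR2.

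VCPIP1 had 0.12, 0.11 and 0.27 TPM in the siVCPIP1 libraries, against 2.93, 3.06 and 2.24 TPM in the siControl libraries. Every siVCPIP1 library lay far below every siControl library, and replicate 3 was the highest of the siVCPIP1 libraries. The means were 0.167 ± 0.090 TPM in siVCPIP1 and 2.74 ± 0.44 TPM in siControl (SD, n = 3 each), a 16.5-fold lower level in siVCPIP1. On the log2(TPM + 1) scale, where the added 1 TPM understates the change of low genes, the log2 fold change was -1.68 (SE 0.13, limma, adjusted p = 2.0e-05). The exact permutation test (two-sided) gave p = 0.1, the smallest that 3 libraries against 3 allow. Without siVCPIP1 replicate 3 the change was -1.74. VCPIP1 was also the least abundant of the 10 genes in control cells, and its 3 exons span chr8:66628487-66667217 (GRCh38 in GENCODE 29, minus strand). Its transcript is 9942 nt long with a GC content of 38.6%, and 6014 nt of it are 3' UTR.

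The fall of VCPIP1 can be set beside that of other genes with like base composition. All tested genes with an annotated transcript were ranked by transcript GC and divided evenly into 10 bins. VCPIP1 falls in the lowest bin, where 98.1% of genes were called lower and the median log2 fold change was -2.25. By the share of the siControl mean kept, 5.69% of all genes tested and 20.0% of the genes in its own bin kept less than VCPIP1. After each library's trend on GC content and length had been removed, the VCPIP1 change was 0.27 and not called (limma, adjusted p = 0.063), and it was -0.55 with the same correction and a pseudocount of 0.1 TPM (adjusted p = 0.016), a setting chosen after seeing the data. The part of GC content in the measured VCPIP1 level was not tested.

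WAC (chr10:28532493-28623112, plus strand), the activator of VCPIP1, fell in every siVCPIP1 library. It had 5.40, 6.37 and 13.6 TPM in siVCPIP1, against 52.9, 63.4 and 50.1 TPM in siControl libraries, with means of 8.44 ± 4.45 TPM in siVCPIP1 and 55.5 ± 7.03 TPM in siControl (SD, n = 3 each). The log2 fold change was -2.67 (SE 0.30, limma, adjusted p = 4.8e-05), and -3.03 without siVCPIP1 replicate 3. All siVCPIP1 libraries lay below all siControl libraries, with replicate 3 of siVCPIP1 more than 2-fold above the other two. Of all genes tested, 12.1% had a lower log2 fold change. WAC kept 15.2% of its siControl level, a larger share than VCPIP1 (6.08%), UBXN2B (13.5%) and NSF (14.0%). Its log2 change was the largest of the 10 genes with a pseudocount of 1 TPM, but with 0.1 TPM VCPIP1 (-3.45), NSF (-2.94) and UBXN2B (-2.89) fell further than WAC (-2.81). With the GC and length trend removed, WAC was the only member still called lower (-0.52, limma, adjusted p = 0.0082), and it lost that call with a pseudocount of 0.1 TPM in the same correction (-0.14, adjusted p = 0.30).

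VCP (chr9:35056064-35073249, minus strand), the p97 ATPase and the most abundant of the 10 genes in control cells, had 60.03, 59.19 and 96.22 TPM in siVCPIP1, against 177, 197 and 184 TPM in siControl libraries. The groups were well separated, with siVCPIP1 replicate 3 nearest to the siControl libraries. The means were 71.8 ± 21.1 TPM in siVCPIP1 and 186 ± 10.1 TPM in siControl (SD, n = 3 each). The change on the log2 scale was -1.40 (SE 0.20, limma, adjusted p = 0.00017), and -1.63 without replicate 3. VCP kept 38.6% of its siControl level, close to the 39.1% kept by the median gene. VCP was not called under median-of-ratios scaling, which lines the libraries up on their typical gene (-0.18, limma, adjusted p = 0.26), nor with the GC and length trend removed (-0.19, adjusted p = 0.087). Under quantile normalization it was still called lower (-1.11, limma, adjusted p = 8.5e-05).

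The adaptors that direct p97 to membranes differed widely. NSFL1C encodes p47, the adaptor of the Golgi fusion route, and had 80.7, 69.8 and 97.7 TPM in siVCPIP1, against 107, 104 and 110 TPM in siControl libraries (log2 fold change -0.38, SE 0.15, limma, adjusted p = 0.042). The groups did not overlap, and siVCPIP1 replicate 3 came nearest to the siControl libraries. NSFL1C (chr20:1442162-1473842, minus strand) overlaps SIRPB2 on the same strand, which had 0.12 to 0.36 TPM in siVCPIP1 and 0.25 to 0.38 TPM in siControl libraries. NSFL1C kept 77.4% of its siControl level, the most of the genes called lower. That call was weak: without siVCPIP1 replicate 1 or 2 or any single siControl library the adjusted p lay between 0.086 and 0.18, and only without siVCPIP1 replicate 3 was it smaller (-0.51, limma, adjusted p = 0.00056). Its direction also turned with scaling, to 0.84 under median-of-ratios scaling and 0.62 with the GC and length trend removed, both called higher (limma, adjusted p = 0.00061 and 0.00083).

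UBXN2B (chr8:58411264-58451501, plus strand), which encodes p37, had 0.28, 0.48 and 1.18 TPM in siVCPIP1, against 4.15, 5.64 and 4.56 TPM in siControl libraries. The siVCPIP1 libraries were all lower, and replicate 3 was the highest of them. The log2 fold change was -1.84 (SE 0.22, limma, adjusted p = 6.5e-05), and -2.06 without replicate 3, but 0.32, called higher, with the GC and length trend removed (adjusted p = 0.033). UBXN2A (chr2:23927285-24004909, plus strand), a paralog of p37 whose part in Golgi fusion is less studied, had 5.48, 5.48 and 7.06 TPM in siVCPIP1, against 18.9, 20.4 and 15.6 TPM in siControl libraries. Its siVCPIP1 libraries were tightly grouped, and it kept 32.8% of its level, where UBXN2B kept 13.5%. The log2 fold change of UBXN2A was -1.46 (SE 0.20, limma, adjusted p = 0.00013), and -1.57 without replicate 3. It was not called by limma under median-of-ratios scaling (-0.34, adjusted p = 0.055) or quantile normalization (-0.02, adjusted p = 0.89), and it was called higher with the GC and length trend removed (0.56, adjusted p = 0.0020).

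The NSF machinery split in opposite directions. NSF (chr17:46590669-46757464, plus strand), the ATPase that disassembles SNARE bundles, had 0.92, 0.87 and 2.70 TPM in siVCPIP1, against 10.3, 11.2 and 10.6 TPM in siControl libraries (log2 fold change -2.30, SE 0.28, limma, adjusted p = 6.9e-05). The siControl libraries lay within a narrow range, whereas replicate 3 of siVCPIP1 stood about 3-fold above the other two, and without it the change was -2.62. With the GC and length trend removed NSF was not called (-0.30, limma, adjusted p = 0.063). NSF has a near-identical pseudogene copy, NSFP1, on the same chromosome, so its level is uncertain to the extent that reads were split between them. NAPA (chr19:47487637-47515240, minus strand), the alpha-SNAP that recruits NSF to SNARE bundles, had 142, 144 and 124 TPM in siVCPIP1, against 83.7, 73.9 and 75.4 TPM in siControl libraries. Every siVCPIP1 library exceeded every siControl library, and the means were 137 ± 10.9 TPM in siVCPIP1 and 77.7 ± 5.32 TPM in siControl (SD, n = 3 each). The log2 fold change of NAPA was 0.81 (SE 0.13, limma, adjusted p = 0.00039), 0.88 without replicate 3, and 94.1% of all genes tested had a lower one. Its call and direction held under median-of-ratios scaling (2.03), under quantile normalization (1.16) and with the GC and length trend removed (0.69, limma, adjusted p = 0.0011).

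Of the Golgi SNAREs, STX5 rose and GOSR2 was not called. STX5 (chr11:62806897-62832088, minus strand) is the target-membrane SNARE on which the p97 and NSF routes meet, and it had 129, 122 and 110.3 TPM in siVCPIP1, against 87.1, 82.5 and 77.0 TPM in siControl libraries. All siVCPIP1 libraries lay above all siControl libraries, with replicate 3 the lowest of siVCPIP1. The means were 120.4 ± 9.39 TPM in siVCPIP1 and 82.2 ± 5.05 TPM in siControl (SD, n = 3 each), and the log2 difference was 0.54 (SE 0.13, limma, adjusted p = 0.0038), and 0.61 without replicate 3. STX5 was also higher under median-of-ratios scaling (1.76), under quantile normalization (0.86) and with the GC and length trend removed (0.83, limma, adjusted p = 0.00155). GOSR2 (membrin, chr17:46923075-46975524, plus strand), a partner of STX5 in ER-to-Golgi fusion, had 36.5, 33.6 and 36.9 TPM in siVCPIP1, against 37.1, 41.6 and 43.9 TPM in siControl libraries. A further protein-coding gene is annotated over GOSR2 on the same strand, so its reads may have been split. The ranges nearly touched without overlap, and the log2 fold change was -0.19 (SE 0.14, limma, adjusted p = 0.24), or -0.21 without replicate 3. GOSR2 was called higher under median-of-ratios scaling (1.01, limma, adjusted p = 0.00051), under quantile normalization (0.56, adjusted p = 0.0047) and with the GC and length trend removed (1.39, adjusted p = 0.00015).

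DNA around the annotated starts of genes from each end of this range is shown so that the promoters of members that moved in opposite directions can be compared. RefSeq promoter windows (GRCh38.p14) were examined for 8 of the 10 genes. VCPIP1 and UBXN2B were left out, so their promoters were not compared. The 250 bases before the RefSeq start are given for NAPA (chr19:47515064-47515313 on the minus strand) and STX5 (chr11:62832052-62832301 on the minus strand), which rose. They are also given for VCP (chr9:35072626-35072875 on the minus strand), WAC (chr10:28532529-28532778 on the plus strand) and NSF (chr17:46590419-46590668 on the plus strand), which fell. RefSeq starts differ from those of GENCODE 29: by the gene spans given above, the VCP and WAC windows lie inside the gene, the NAPA and STX5 windows overlap its first bases, and the NSF window ends just before it. Each reads 5' to 3' on the strand of the gene, and capitals mark, on either strand, the E-box CACGTG, the CCAAT box CCAAT, the ETS site CCGGAAG and the GC box GGGCGG.
NAPA: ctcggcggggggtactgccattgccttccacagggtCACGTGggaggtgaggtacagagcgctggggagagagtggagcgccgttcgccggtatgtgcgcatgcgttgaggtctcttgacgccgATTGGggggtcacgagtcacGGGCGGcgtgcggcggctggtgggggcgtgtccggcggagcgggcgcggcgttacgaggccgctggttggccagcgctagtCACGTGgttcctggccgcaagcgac
STX5: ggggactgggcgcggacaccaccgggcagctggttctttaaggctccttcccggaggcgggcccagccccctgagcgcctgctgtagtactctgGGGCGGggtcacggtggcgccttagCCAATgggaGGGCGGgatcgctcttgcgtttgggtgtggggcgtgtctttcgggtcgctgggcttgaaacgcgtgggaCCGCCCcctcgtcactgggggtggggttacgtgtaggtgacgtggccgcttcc
VCP: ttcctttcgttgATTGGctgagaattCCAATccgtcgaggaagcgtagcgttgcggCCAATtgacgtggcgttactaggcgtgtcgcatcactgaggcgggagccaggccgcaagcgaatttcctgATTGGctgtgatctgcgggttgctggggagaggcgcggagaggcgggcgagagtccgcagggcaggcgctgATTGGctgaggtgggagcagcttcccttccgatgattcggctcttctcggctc
WAC: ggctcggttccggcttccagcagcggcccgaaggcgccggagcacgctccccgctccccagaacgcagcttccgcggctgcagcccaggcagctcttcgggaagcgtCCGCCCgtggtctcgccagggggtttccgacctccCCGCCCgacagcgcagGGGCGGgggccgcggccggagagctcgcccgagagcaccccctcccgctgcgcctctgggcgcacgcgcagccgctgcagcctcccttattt
NSF: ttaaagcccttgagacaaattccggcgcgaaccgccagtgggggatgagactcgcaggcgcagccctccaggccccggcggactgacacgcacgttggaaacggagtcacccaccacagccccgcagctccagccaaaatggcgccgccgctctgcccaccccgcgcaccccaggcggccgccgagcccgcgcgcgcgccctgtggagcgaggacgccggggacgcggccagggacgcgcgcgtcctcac

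The NAPA window held 2 copies of CACGTG and the GOSR2 window 1. At least 1 copy was found in 6.35% of 35116 promoter windows of the same length. The VCP window held 5 copies of CCAAT, found at least once in 32.0% of windows, and the NAPA and STX5 windows 1 each. GGGCGG, found in 42.6% of windows, occurred 3 times in STX5, which rose, and 3 times in WAC, which fell. It also occurred 3 times in NSFL1C and 1 time each in UBXN2A and NAPA. CCGGAAG, found in 8.52% of windows, occurred 2 times in GOSR2 and in none of the 5 windows shown, and the NSF window held none of the 4 motifs. None of the 4 motifs was found in both genes that rose and in none that fell. The windows were all rich in GC (60.8% to 76.8% over the 8 genes), including those of WAC and NSF at 75.2% and 72.8%, although the transcripts of WAC and NSF are not.

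**Figure D2:**
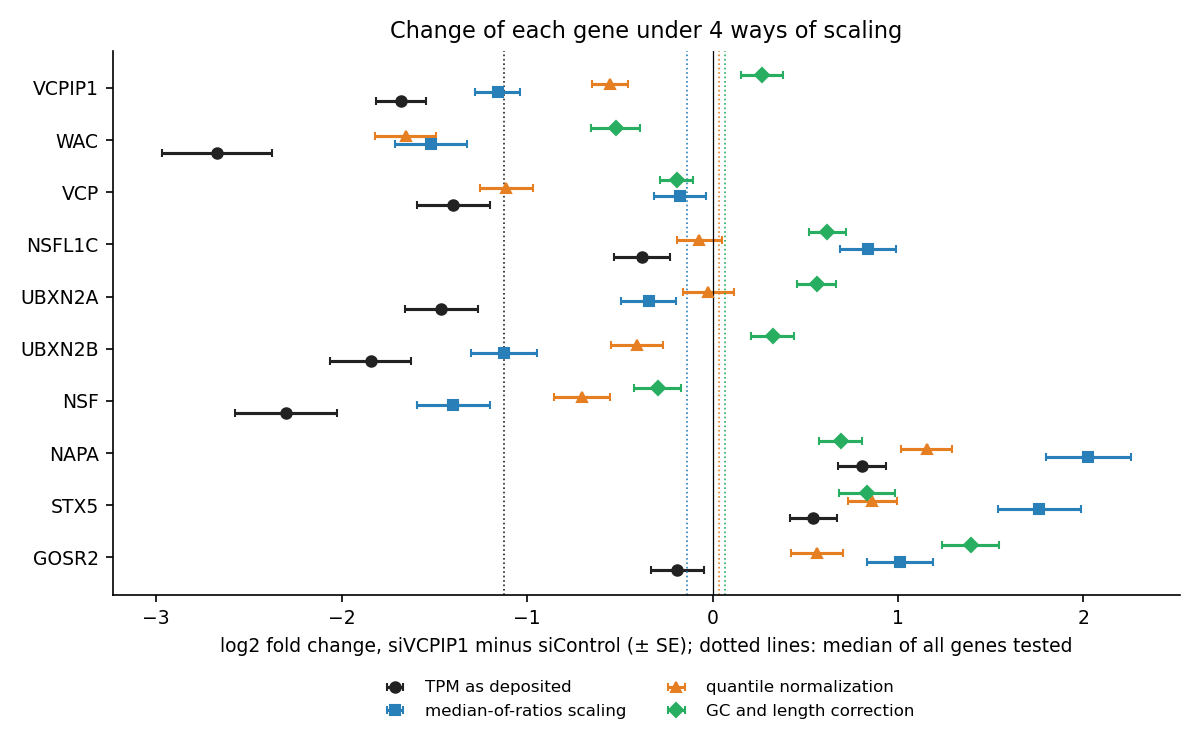
Log2 fold change of the 10 genes (siVCPIP1 minus siControl, ± SE) for TPM as deposited, median-of-ratios scaling, quantile normalization and removal of the GC and length trend; dotted lines give the median of all genes tested under each. NAPA and STX5 lie above 0 under each of the 4, WAC, NSF and VCP lie below 0 under each, and GOSR2, NSFL1C, UBXN2A, UBXN2B and VCPIP1 lie on both sides of 0.

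Because the libraries differed as a whole, the directions were compared under other scalings. Median-of-ratios scaling gave 4 members lower (VCPIP1, UBXN2B, WAC and NSF) and 4 higher (NSFL1C, STX5, GOSR2 and NAPA), beside 45.1% of all genes lower and 40.3% higher. Under quantile normalization 5 members were lower (those 4 and VCP) and 3 higher (STX5, GOSR2 and NAPA), beside 38.8% of all genes lower and 42.2% higher. With the GC and length trend removed WAC was lower and 6 members were higher, beside 31.8% of 10708 genes lower and 37.2% higher. The median over all genes tested was -0.14, 0.04 and 0.06 under these, against -1.12 with TPM as deposited. STX5, NAPA and GOSR2 were called higher under each of these 3 and WAC lower under each, while NSFL1C and UBXN2A were called lower under none of them. These methods align the libraries, so a more even balance of directions over all genes follows from them.

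The changes of the 10 genes followed the GC content of their transcripts. The genes that kept the least were VCPIP1 (38.6% GC), UBXN2B (39.7%), NSF (44.1%) and WAC (43.7%), and the genes that rose were STX5 (55.9%) and NAPA (59.2%). Across the 10 genes, which are not independent replicates and share the same 6 libraries, log2 fold change correlated with transcript GC at r = 0.82 (Spearman's rho 0.77), and across 10708 genes at r = 0.72 (rho 0.74). Against the median of their own GC bin, STX5 (0.54 against -0.42), NAPA (0.81 against -0.13), GOSR2 (-0.19 against -1.42) and NSFL1C (-0.38 against -0.93) lay higher, and 89.5%, 92.3%, 89.5% and 71.7% of the genes in those bins had a lower change. UBXN2A (-1.46 against -2.18) and UBXN2B (-1.84 against -2.18) also lay higher, and VCP (-1.40 against -0.93), WAC (-2.67 against -2.05) and NSF (-2.30 against -2.05) lay lower. In the bins of VCP, WAC and NSF, 31.84%, 24.56% and 38.66% of genes had a lower change. By the share of the siControl mean kept, 39.03%, 47.25% and 43.23% of the genes in those bins kept less. VCPIP1 lay higher than its bin on the log2(TPM + 1) scale (-1.68 against -2.25), where 75.7% of the bin had a lower change, but only 20.0% of the bin kept a smaller share of the siControl mean. The genes that rose also have short transcripts, 1794 nt for STX5 and 1839 nt for NAPA, where those of the other 8 genes run from 3042 to 9942 nt. The part of GC content and length in these changes was not tested.

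**Figure D3:**
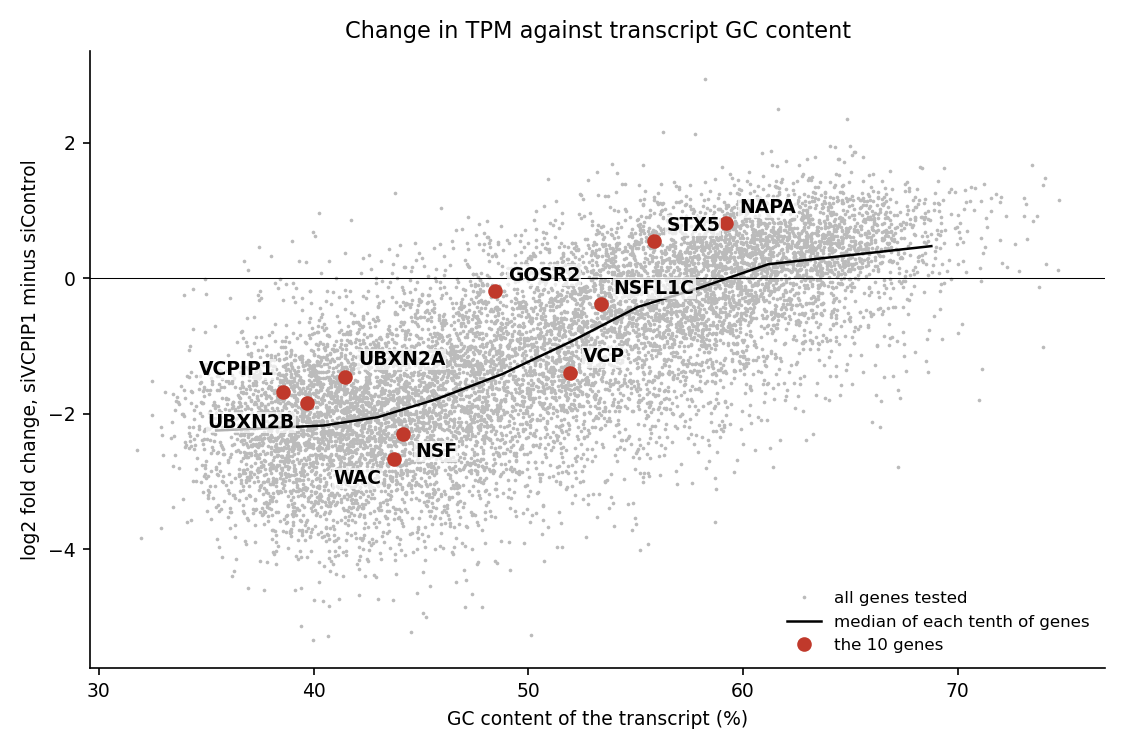
Log2 fold change (siVCPIP1 minus siControl) against transcript GC content for all genes tested (grey), with the median of each of 10 equal bins (line) and the 10 genes in red. The genes lie along the general trend, with GOSR2, STX5 and NAPA above the line and WAC, NSF and VCP below it.

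A ratio of TPM between 2 genes of the same library is not altered by 1 multiplier for the whole library, as in median-of-ratios scaling, so the balance between partners was compared within libraries for 10 pairs. It is altered by quantile normalization and by removal of the GC and length trend. Directions on the log2(TPM + 1) scale were compared with those of the ratios without an added 1 TPM. By that measure 4 of the 10 pairs kept their direction under quantile normalization and 5 with the GC and length trend removed. NSFL1C to VCP, UBXN2B to NSFL1C and NAPA to NSF kept it under both. WAC to VCPIP1, counted as turned under both, had already turned with 1 TPM added alone (-0.99). The genes of a pair differ in GC content and length, and the part of these in the ratios was not tested. The p47 adaptor was higher relative to its ATPase: the NSFL1C to VCP ratio was 1.34, 1.18 and 1.02 in siVCPIP1, against 0.602, 0.530 and 0.597 in siControl libraries, a 2.04-fold higher ratio. The p37 adaptor was lower relative to it, with a UBXN2B to VCP ratio of 0.0047, 0.0081 and 0.012 in siVCPIP1, against 0.023, 0.029 and 0.025 in siControl libraries, a direction that turned under quantile normalization (0.70 on the log2 scale) and with the GC and length trend removed (0.52). UBXN2A was not separated from VCP, with ratios of 0.091, 0.093 and 0.073 in siVCPIP1 and 0.106, 0.104 and 0.085 in siControl libraries, and this was the only pair in which the groups overlapped (difference in log2 ratio -0.20, exact permutation p = 0.3, adjusted p = 0.3).

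The widest shift was between NSF and its adaptor. The NAPA to NSF ratio was 154, 166 and 46.1 in siVCPIP1, against 8.16, 6.58 and 7.13 in siControl libraries, a 14.6-fold higher ratio, with siVCPIP1 replicate 3 the lowest of its group and still well above every siControl library. The log2 ratio differed by 3.86, and by 4.46 without that replicate. With 1 TPM added to both genes the NAPA to NSF difference was 3.11. On that scale it was 1.86 under quantile normalization and 0.99 with the GC and length trend removed. The NSF to VCP ratio, between the 2 fusion ATPases, was 0.0153, 0.0147 and 0.0281 in siVCPIP1, against 0.0579, 0.0570 and 0.0574 in siControl libraries (log2 difference -1.64, and 0.41 under quantile normalization). The STX5 to GOSR2 ratio, between SNARE partners, was 3.53, 3.63 and 2.99 in siVCPIP1, against 2.35, 1.98 and 1.75 in siControl libraries (log2 difference 0.74, and -0.56 with the GC and length trend removed). By these ratios VCPIP1 was lower relative to both its partners: the VCPIP1 to VCP log2 ratio differed by -2.74, and the WAC to VCPIP1 log2 ratio by 1.32. With 1 TPM added to both genes these became -0.28, with overlapping groups, and -0.99, the opposite direction. In 9 of the 10 pairs the groups did not overlap. The share of such pairs among all gene pairs was not computed, and the TPM ranges of 86.0% of single genes did not overlap either. For these 9 pairs the exact permutation test gave p = 0.1, which is the lowest possible here. It gave 0.11 after Benjamini-Hochberg adjustment over the 10 pairs, so none passes 0.05.

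**Figure D4:**
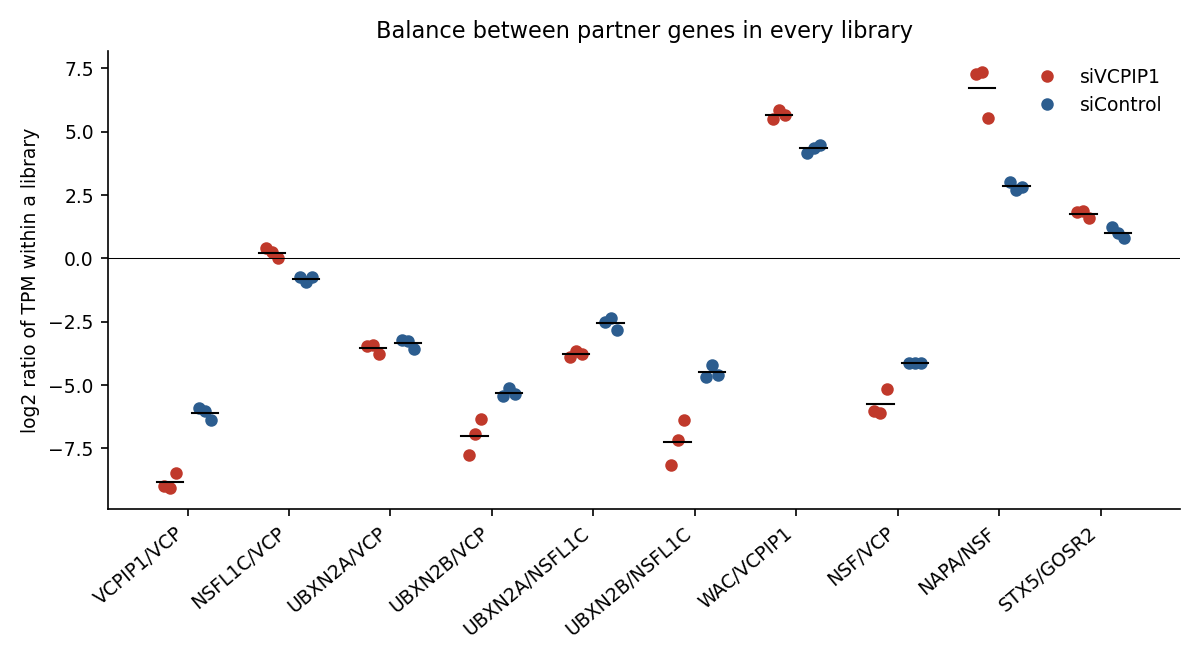
Log2 ratio of TPM between partner genes within each library for 10 pairs, siVCPIP1 in red on the left and siControl in blue on the right; points are libraries and bars are means of 3. The groups are apart in every pair but UBXN2A/VCP, and the gap is widest for NAPA/NSF.

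The order of the levels changed with these shifts. In siVCPIP1 libraries NAPA (137 TPM) and STX5 (120.4 TPM) led, with ranges that overlapped, followed by NSFL1C (82.7 TPM) and VCP (71.8 TPM), which also overlapped, then GOSR2, WAC and UBXN2A, of which the last pair overlapped, and NSF and UBXN2B, which overlapped, with VCPIP1 last. In siControl libraries VCP led at 186 TPM, followed by NSFL1C at 107 TPM, then STX5 and NAPA, whose ranges overlapped, and then WAC, GOSR2, UBXN2A, NSF, UBXN2B and VCPIP1 with no overlap between neighbours. VCP thus ranked at position 4 in siVCPIP1 and 1 in siControl libraries, and WAC stood below GOSR2 in siVCPIP1 and above it in siControl libraries.

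The genes whose profile over the 6 libraries was nearest to that of VCPIP1 were sought by the Euclidean distance between centred log2(TPM + 1) values. For genes near 1 TPM or below, the pseudocount makes this scale understate the fold, so a near profile need not mean a like fold. The nearest of 10965 genes were PPP1R3D (distance 0.052), FBXO3 (0.10), SPATA13 (0.11), FZD1 (0.11) and ERCC6L (0.12). PPP1R3D, for example, averaged 0.153 TPM in siVCPIP1 and 2.67 TPM in siControl libraries, close to VCPIP1, whereas FBXO3 averaged 2.87 TPM in siVCPIP1 and 11.5 TPM in siControl libraries, a smaller fold than that of VCPIP1. Of the other members UBXN2A ranked nearest, at position 239 (distance 0.29), followed by UBXN2B at 1268 and VCP at 1439. NAPA ranked farthest of the members, at position 10228.

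Genes that work around the 10 were followed as 6 lists, of which 74 of 78 genes passed the filter. The lists were drawn up with earlier results of these data in view, and YOD1 stands in 2 of them but is counted once in the totals. Over them 59 genes fell and 9 rose (61 and 9 without siVCPIP1 replicate 3), with a median log2 fold change of -1.44, against 66.0% lower, 15.0% higher and -1.12 for all genes tested. Of 24 tested p97 adaptors and cofactors, 19 fell and 5 rose with TPM as deposited (median -1.38), against 13 lower and 6 higher under median-of-ratios scaling, 13 and 5 under quantile normalization and 5 and 12 with the GC and length trend removed. UBXN4, an ER-anchored p97 adaptor, had 1.40, 1.58 and 3.72 TPM in siVCPIP1, against 38.0, 39.7 and 18.6 TPM in siControl libraries (log2 fold change -3.35, limma, adjusted p = 3.9e-05). The peptide N-glycanase NGLY1 (-2.61) and the lipid droplet and ER adaptor FAF2 (-2.60) also fell. UBXN6, an adaptor of the lysosomal p97 route, rose, with 194, 191 and 179 TPM in siVCPIP1 and 98.5, 81.3 and 81.4 TPM in siControl libraries (log2 fold change 1.11, limma, adjusted p = 6.4e-05), and UBXN11 (1.02) and ASPSCR1 (0.94), which takes p97 hexamers apart, rose as well, as did UBXN1 (0.57) and ZFAND2B (0.94), named because they complete this count. The adaptors that rose had transcripts with a GC content of 60.4% to 65.6%, and the list median was 45.1%.

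Of 18 tested SNAREs of the ER, Golgi and endosome-to-Golgi steps, 11 fell, 2 rose and 5 were not called with TPM as deposited (median -0.86). Among all genes tested 66.0% were lower and 15.0% higher, so these counts lie near the background. Under median-of-ratios scaling 7 SNAREs were lower and 8 higher, beside 45.1% and 40.3% of all genes. Quantile normalization gave 6 and 7, beside 38.8% and 42.2%. With the GC and length trend removed 2 were lower and 8 higher, beside 31.8% and 37.2%. STX16 (-2.75), STX7 (-2.71) and BET1 (-2.15) had the largest falls, and USE1 (0.67) and STX10 (0.44) were the genes that rose. The partners of STX5, picked here for their known pairing and not by the size of their change, were followed in both of its complexes. In the ER-to-Golgi complex with GOSR2, BET1 had 4.43, 7.46 and 10.4 TPM in siVCPIP1, against 31.9, 42.3 and 31.2 TPM in siControl libraries. SEC22B averaged 1.98 ± 0.83 TPM in siVCPIP1 and 10.6 ± 0.70 TPM in siControl libraries (SD, n = 3 each). Both fell (limma, adjusted p = 0.00011 and 5.5e-05). In the intra-Golgi complex, YKT6 fell by 0.51 (limma, adjusted p = 0.037), and GOSR1 (-0.37, adjusted p = 0.084) and BET1L (-0.40, adjusted p = 0.072) were not called.

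All 5 tested SNAPs and SNARE regulators other than NAPA fell with TPM as deposited (median -2.31), against 5 lower and 0 higher under median-of-ratios scaling, 3 and 0 under quantile normalization and 2 and 2 with the GC and length trend removed. Their median transcript GC was 41.4%, which lies in a GC bin where 97.95% of all genes were called lower as deposited. NAPG, the gamma-SNAP paralog of NAPA, had 1.29 ± 0.53 TPM in siVCPIP1 and 10.7 ± 0.51 TPM in siControl libraries (SD, n = 3 each), a log2 fold change of -2.37 (limma, adjusted p = 2.0e-05). The Sec1-family regulator of STX5, SCFD1, fell by 3.22, and GABARAPL2, which binds NSF and GOSR1, fell by 2.31. With TPM as deposited NAPA was thus higher and its paralogs NAPG and NAPB lower in siVCPIP1, and their transcripts contain 59.2%, 37.6% and 41.4% GC. All 14 tested Golgi tethers and stacking proteins fell with TPM as deposited (median -1.53), against 10 lower and 1 higher under median-of-ratios scaling, 7 and 3 under quantile normalization and 6 and 3 with the GC and length trend removed. The median transcript GC of these tethers was 44.2%, which lies in a GC bin where 97.1% of all genes were called lower as deposited. The largest falls as deposited were those of USO1 (p115, -3.52), GOLGA4 (-2.98) and GOLIM4 (-2.88). USO1 had 0.36, 0.62 and 1.61 TPM in siVCPIP1, against 23.2, 24.9 and 12.8 TPM in siControl libraries, with no overlap.

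Of 12 other OTU-domain deubiquitinases tested, 10 fell and 1 rose with TPM as deposited (median -1.62), beside 66.0% and 15.0% of all genes tested. Under median-of-ratios scaling 8 were lower and 2 higher, under quantile normalization 6 and 4, and with the GC and length trend removed 2 and 5. The median transcript GC of this list was 43.97%, which lies in a GC bin where 97.1% of all genes were called lower as deposited. OTUD4 (-2.41), YOD1, which like VCPIP1 binds p97 (-2.34), and TNFAIP3 (-2.22) fell most, and OTUB1 had 265 ± 18.4 TPM in siVCPIP1 and 154 ± 15.1 TPM in siControl libraries (SD, n = 3 each; log2 fold change 0.78, limma, adjusted p = 0.00042). The WAC partners RNF20 and RNF40, which form a histone H2B ubiquitin ligase, moved apart with TPM as deposited. RNF20 fell by 2.11 (limma, adjusted p = 2.0e-05) and RNF40 rose by 0.36 (adjusted p = 0.037). Their transcripts contain 45.35% and 60.81% GC. Of these 2 genes, 1 was lower and 1 higher under median-of-ratios scaling and under quantile normalization. With the GC and length trend removed 0 were lower and 1 was higher. HACE1, the ligase that acts on STX5, lay under the filter, with 0.02, 0.06 and 0.03 TPM in siVCPIP1 and 0.86, 0.74 and 0.49 TPM in siControl libraries. Over all the lists together, 74 genes tested, 43 were lower and 18 higher under median-of-ratios scaling, beside 45.1% and 40.3% of all genes. Under quantile normalization 35 were lower and 20 higher, beside 38.8% and 42.2%. With the GC and length trend removed 17 were lower and 31 higher, beside 31.8% and 37.2%.

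**Figure D5:**
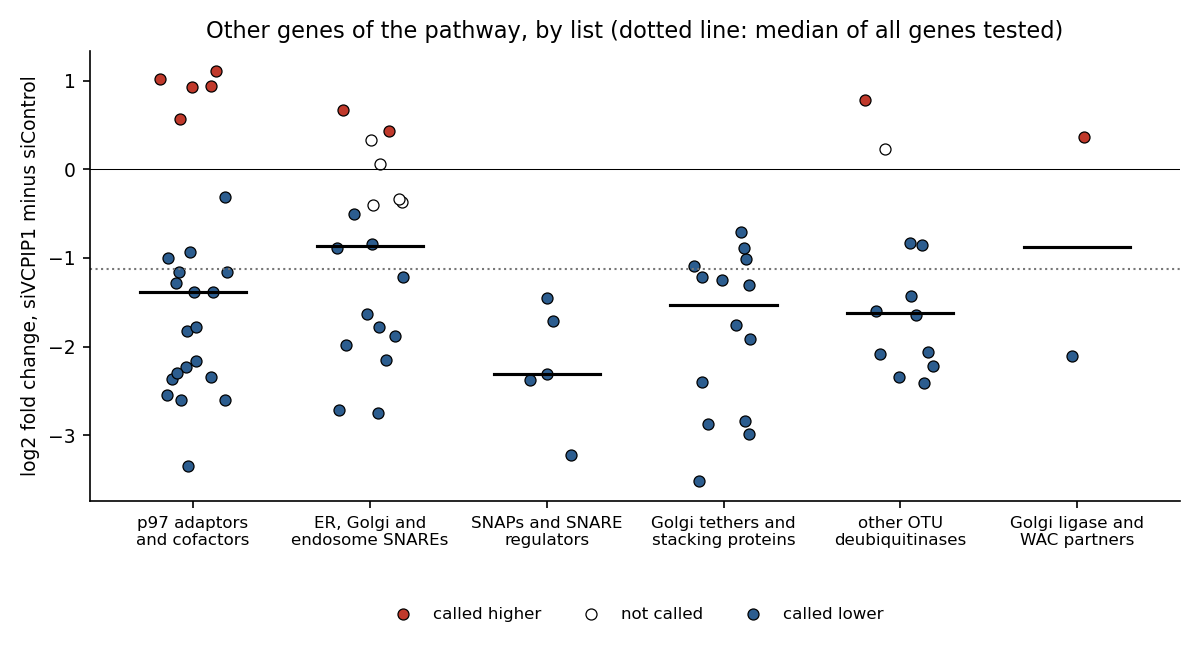
Log2 fold change (siVCPIP1 minus siControl, TPM as deposited) of other pathway genes in 6 lists; each point is a gene, coloured by its call, short bars are list medians and the dotted line is the median of all genes tested. The 14 tethers and 5 SNAPs and SNARE regulators are all called lower, and the p97 adaptors hold 5 of the 9 genes called higher.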

How the data were processed

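The deposited table holds TPM per gene symbol, computed by the authors, per the file headers, and rounded to 2 decimals. The build was GRCh38.p13 (per the submitters' processing notes), with aligner, quantification tool, gene annotation and strand setting not given in the sources used here. Depth is unknown, so no counting interval is given. Without a strand setting, reads from WAC and NAPA and from their annotated antisense genes cannot be told apart.

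Genes whose mean reached 1 TPM were compared on log2(TPM + 1) by limma 3.58.1 (R 4.3.3, trended eBayes, no term but group), and p-values were adjusted by Benjamini-Hochberg over the 10966 genes. Exact permutation tests used scipy 1.17.1. The fit was tested on data simulated around the siControl means with a common spread. That simulation held no GC trend, library-wide shift or outlying library, so it does not cover these features of the data. Alternatives were median-of-ratios scaling, quantile normalization, pseudocount, filter, variance trend, replicate block, each library left out, and removal of each library's spline trend on GC content and log2 length (5 and 3 degrees of freedom), for which 1 transcript per gene of GENCODE 29 was found for 97.7% of genes.

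The members, lists and pairs were chosen with earlier results of these data known. Named genes are the 10 members, the 5 nearest profiles, and up to 3 called genes a direction in each list. UBXN1, ZFAND2B, the STX5 partners, NAPB and HACE1 lie outside that rule.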

Additional observations from a re-analysis of the deposited data

How the results depend on the processing

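The VCPIP1 change kept its direction and call in every alternative but removal of the GC and length trend with a pseudocount of 1 TPM, where it was 0.27, with and without a replicate block, and not called. With the trend removed and a pseudocount of 0.1 TPM it was -0.55 and called lower. Leaving out single libraries gave -1.78 to -1.62. At a level under 1 TPM the pseudocount bounds the log2 fall by construction. The filter at 5 TPM gave no value for VCPIP1 and UBXN2B.

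Members called lower numbered 7, with 6 to 7 on leaving out single libraries, 4 after median-of-ratios scaling and 1 after GC and length correction, with a replicate block, without it or with a pseudocount of 0.1 TPM. Members called higher numbered 2, in every leave-one-out fit too, 4 after median-of-ratios scaling, 6 after GC and length correction with or without a block, and 5 with the pseudocount of 0.1 TPM added.

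The directions that turned were these. With GC and length correction, alone or with a replicate block, NSFL1C lay at 0.62, UBXN2A at 0.56, UBXN2B at 0.32 and GOSR2 at 1.39. With a pseudocount of 0.1 TPM added they lay at 0.81, 1.19, 0.12 and 1.75, and VCP at 0.052, a setting chosen after seeing the data. Median-of-ratios scaling put NSFL1C at 0.84 and GOSR2 at 1.01, and quantile normalization GOSR2 at 0.56. The WAC to VCPIP1 log2 ratio turned to -0.99 with 1 TPM added to both genes, and the other 9 ratios kept their direction under that setting and on leaving out single libraries. Differences on the log2(TPM + 1) scale under the other methods, chosen after seeing the data, also turned for some pairs. Quantile normalization turned VCPIP1 to VCP (0.56), UBXN2A to VCP (1.09), UBXN2B to VCP (0.70), UBXN2A to NSFL1C (0.049) and NSF to VCP (0.41). Removal of the GC and length trend turned VCPIP1 to VCP (0.46), UBXN2A to VCP (0.76), UBXN2B to VCP (0.52) and STX5 to GOSR2 (-0.56). WAC to VCPIP1, already at -0.99 on that scale, lay at -1.10 under quantile normalization and at -0.79 with the trend removed. Leaving out single libraries gave 3.54 to 4.46 for NAPA to NSF and 0.93 to 1.13 for NSFL1C to VCP.

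All genes called lower and higher numbered 7241 and 1646, with 6742 to 7772 and 1245 to 1851 on leaving out single libraries, 4951 and 4416 under median-of-ratios scaling, 4258 and 4625 under quantile normalization, 3401 and 3981 after GC and length correction, 3412 and 3956 with a block added and 3320 and 3853 with the pseudocount of 0.1 TPM added. The filter at 5 TPM left 4679 lower, of fewer genes tested. Pathway genes on the lists called lower numbered 35 after quantile normalization, 36 with that filter, 17 after GC and length correction with or without a block and 20 with the pseudocount added. Those called higher numbered 18, 20, 31, 32 and 34 under median-of-ratios scaling, quantile normalization, GC and length correction, the block added to it and the pseudocount added to it. The cause of these differences was not tested.

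Whether the replicate numbers pair the libraries is not known. Residuals of same-numbered libraries correlated at 0.53, -0.27 and 0.16 across genes. These residuals were centred within each group of 3 libraries. Replicates 1 and 2 of siVCPIP1 both correlated with siControl replicate 1 (0.53 and 0.40), so these values cannot settle the pairing. A replicate block gave 7 members lower and 2 higher, and 7085 and 1586 genes. TPM carries no read numbers, so how precisely genes near 0.1 TPM were measured is not known.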
